A study of Mus musculus with 4 samples.

Results

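Injured tubule cells that carried mRNA of Havcr1 (kidney injury molecule 1) were examined in single-cell RNA sequencing of mouse kidney after ischemia-reperfusion. A barcode, which stands for 1 droplet and usually 1 cell, was counted as a Havcr1-positive cell when it held at least 2 Havcr1 unique molecular identifiers (UMIs, 1 per captured mRNA). It also held no Ptprc (leukocyte) and no Pecam1 (endothelium) UMI, at most 5 UMIs of C1qa, C1qb and C1qc together (macrophage) and fewer than 2 of Mki67 and Top2a together (cell division). The cells were thus chosen by their raw counts of these 9 genes, Havcr1 first. The rule found 428 such cells among 37839 kept barcodes, which had 200 genes or more and no more than 50% mitochondrial UMIs. They were described against the proximal tubule cells of the same libraries, here called comparison cells (reference in the plots, where the Havcr1-positive cells are named members), which had no Havcr1 UMI, at least 2 UMIs of Lrp2 (megalin) and no Ptprc. There were 18041 comparison cells.

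All mice were male C57BL/6 and all had ischemia-reperfusion injury. The 4 groups were kidneys taken at day 5, day 14 and day 28 without the probiotic bacterium, and at day 5 after 4 weeks of daily gavage, before injury, with 1e9 colony-forming units of L. casei Zhang, labelled Lac.z. Each group had 1 library, so no difference between groups has a replicate check and no p-value is given. The sources used here do not give the gavage of the other mice or the number of animals per library. Uninjured kidney is not analysed here.

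Kidney tissue was minced by syringe, digested with enzymes, strained and treated for red cells, so cells lost in these steps are not in the counts. Totals were 76678882 to 104454319 UMIs per library, over 8168 to 15583 barcodes. Intervals below are exact 95% intervals and cover counting error only. No barcode of a Havcr1-positive cell was shared between libraries.

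The proximal tubule takes back sodium, phosphate, glucose and protein from the filtrate, makes glucose and burns fatty acids, and it is the segment most exposed to ischemia. Injured tubule cells flatten, lose transport proteins, express keratins and secreted proteins such as osteopontin (Spp1), and show KIM-1, the product of Havcr1, at the luminal surface. KIM-1 binds phosphatidylserine on dying cells and lets the epithelial cell take them up. Some of these cells regain their former state and others stay in an inflammatory state marked by Vcam1.

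Havcr1 lies on the plus strand at chr11:46735080-46779578 (GRCm38, GENCODE M21). The 250 bases before its first listed start are shown because this is the gene that defines the cells, together with those of Cp, one of the higher injury genes, and G6pc, one of the lower named genes. Cp and G6pc were picked after their values were seen. The sequences are from RefSeq GRCm38.p6 and read 5′ to 3′ on the gene's own strand, all plus. Capitals mark matches to the motifs searched on both strands. These motifs were AP-1 (TGANTCA), NF-kappaB (GGNNTTTCC), HNF1 (GTTAATNAT) and HNF4 (CAAAGTCCA).
Havcr1, chr11:46739973-46740222: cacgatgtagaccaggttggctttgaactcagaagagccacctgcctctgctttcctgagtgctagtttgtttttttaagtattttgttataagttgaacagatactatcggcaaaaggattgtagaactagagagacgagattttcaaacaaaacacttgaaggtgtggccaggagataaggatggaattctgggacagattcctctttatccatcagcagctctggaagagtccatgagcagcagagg
Cp, chr3:19956804-19957053: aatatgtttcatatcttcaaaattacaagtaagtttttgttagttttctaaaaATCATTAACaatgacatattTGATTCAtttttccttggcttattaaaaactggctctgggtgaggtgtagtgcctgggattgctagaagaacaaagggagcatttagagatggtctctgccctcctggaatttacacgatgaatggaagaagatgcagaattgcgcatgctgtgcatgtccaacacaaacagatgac
G6pc, chr11:101367466-101367715: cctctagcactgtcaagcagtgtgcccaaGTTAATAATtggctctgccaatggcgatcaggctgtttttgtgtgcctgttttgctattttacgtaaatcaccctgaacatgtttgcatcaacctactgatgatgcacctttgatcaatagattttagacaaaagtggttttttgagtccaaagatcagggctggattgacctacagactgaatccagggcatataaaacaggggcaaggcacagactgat
None of the 4 motifs was found in the Havcr1 window. The Cp window held an HNF1 match and an AP-1 match, and the G6pc window held an HNF1 match, none of which overlaps another. A later listed start of Cp had an NF-kappaB match and neither of the others. Most genes had no match. Of the 12 genes named by rank below in each direction, 10 higher and 11 lower ones had windows. HNF1 was found in 1 of the 10 and in 1 of the 11, which is G6pc. AP-1 was found in 0 and 1, and NF-kappaB and HNF4 in 0 of either. Over 32851 promoter windows of the same length, AP-1 was found in 6.75%, NF-kappaB in 4.93%, HNF1 in 0.737% and HNF4 in 0.384%. A match describes letters in the window and shows no binding.

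Havcr1-positive cells were found in every library and were rare at day 28. There were 68 at day 5, 159 in the Lac.z library, then 185 at day 14 and 16 at day 28. They made up 0.960% of kept barcodes at day 5 (interval 0.746 to 1.22), 2.26% in the Lac.z library (1.92 to 2.63), then 1.93% at day 14 (1.67 to 2.23) and 0.113% at day 28 (0.0647 to 0.184). The day 28 share was 8.48-fold lower than the day 5 share (4.87 to 15.7) and 17.1-fold lower than the day 14 share (10.2 to 30.5).

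The order of the first 3 libraries (day 5, Lac.z and day 14) depended on the denominator. Among tubule cells alone, that is Havcr1-positive plus comparison cells, the shares were 5.62% at day 5 (4.39 to 7.08), 4.32% in the Lac.z library (3.69 to 5.03), then 3.65% at day 14 (3.15 to 4.20) and 0.188% at day 28 (0.107 to 0.305). The Lac.z to day 5 ratio was 2.35 (1.76 to 3.17) over kept barcodes and 0.768 (0.575 to 1.04) over tubule cells. The day 14 to day 5 ratio was 2.01 (1.52 to 2.70) over kept barcodes and 0.649 (0.489 to 0.870) over tubule cells. The day 5 library held 4029 barcodes with at least 2 Ptprc UMIs of its 7086 kept barcodes, against 2089 of 7043 with Lac.z, 1796 of 9572 at day 14 and 1128 of 14138 at day 28. A change in the number of injured cells and a change in the number of other cells recovered cannot be told apart from shares.

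**Figure D1:**
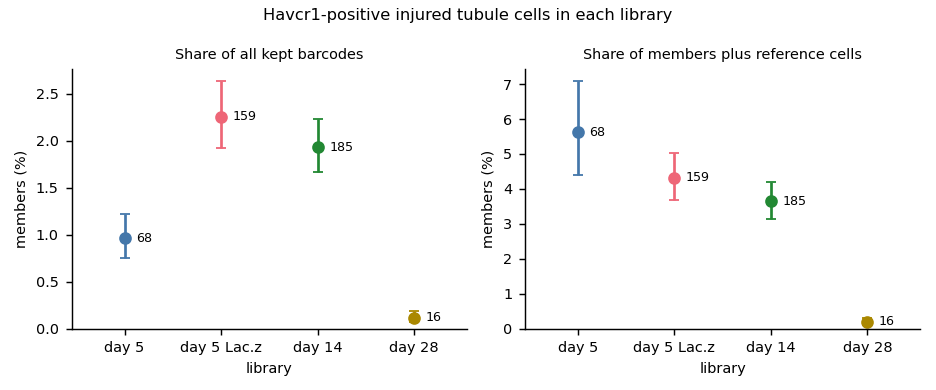
Havcr1-positive cells as a percentage of kept barcodes and of tubule cells (Havcr1-positive plus comparison cells) in each of the 4 libraries, with exact 95% binomial intervals. Day 28 is lowest by both denominators, while day 5 is below day 5 Lac.z and day 14 over kept barcodes and above them over tubule cells.

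Depth bears on who is counted, since deeper cells pass a minimum of 2 UMIs more easily. The median Havcr1-positive cell held 14874 UMIs at day 5, 12507 in the Lac.z library, then 13650 at day 14 and 10290 at day 28, and the median comparison cell held 7473, 8360, 7347 and 6632. After each cell was thinned to 2000 UMIs and 1 Havcr1 UMI was asked for, the shares of kept barcodes were 0.717%, 2.06%, 1.98% and 0.0913% in the same order, leaving out 809, 292, 631 and 2085 shallower barcodes. Mitochondrial UMIs had a median of 13.5%, 13.3%, 9.80% and 7.66% in Havcr1-positive cells against 22.4%, 18.7%, 17.9% and 19.3% in comparison cells.

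Havcr1 itself was at 840 CPM (UMIs of the gene per 1000000 UMIs of all genes) in Havcr1-positive cells at day 5, 597 in the Lac.z library, then 609 at day 14 and 429 at day 28, which is a description, since Havcr1 chose the cells. Free RNA in droplets gives UMIs to cells that do not make a gene. Among barcodes with at least 2 Ptprc UMIs, 0.298%, 0.335% and 0.0557% held at least 2 Havcr1 UMIs at day 5, the Lac.z library and day 14, and 0 of 1128 did at day 28, which allows up to 0.266%. In barcodes with at least 2 Lrp2 UMIs and no Ptprc, the shares were 3.13%, 3.71%, 2.94% and 0.141%. The median depths were 11746, 10587, 7816 and 4901 UMIs in the former and 7702, 8570, 7569 and 6659 in the latter. The first 3 shares in tubule cells were above those in leukocytes, while the day 28 share was under the limit that the leukocytes of that library allow.

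The cells just inside and just outside the Havcr1 minimum are given as a description. Pooled over libraries, 395 cells with 1 Havcr1 UMI and otherwise the same rule had a median of 9384 UMIs, 124 cells with 2 had 11468 and 56 cells with 3 had 11829. Spp1 was at 8765 CPM in cells with 1 Havcr1 UMI, 14915 with 2 and 18171 with 3. Slc34a1, the sodium-phosphate cotransporter of the apical membrane, was at 2277, 1695 and 1569 CPM.

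Pooled over libraries, Slc34a1 was at 1313 CPM in cells with 4 to 7 Havcr1 UMIs, 1033 with 8 to 15 and 453 with 16 or more. Spp1 was at 18027, 20414 and 31525 CPM in the same cells and Cp at 208, 330 and 702 CPM. The injury genes did not all follow this order, since Vcam1 was at 212, 187 and 850 CPM and Lcn2 at 8.68, 128 and 267 CPM. Nor did each library, since Spp1 was at 20575, 23311 and 20945 CPM with Lac.z, and at day 28 it was at 16628 CPM in 5 cells with 4 to 7 and 3364 CPM in 2 cells with 16 or more. Libraries also differ in how many cells each range holds. The median depth also differed, at 11585, 14121 and 22446 UMIs, and its part in these values was not tested.

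The label was checked against the markers Spp1, Krt20 and Krt8. Spp1, which encodes osteopontin, was at 26350, 20860, 19680 and 11770 CPM in Havcr1-positive cells at day 5, the Lac.z library, day 14 and day 28, and at 3496, 4202, 1834 and 745 CPM in comparison cells. It was 7.54-fold (7.42 to 7.65), 4.96-fold (4.91 to 5.01), 10.7-fold (10.6 to 10.8) and 15.8-fold (15.2 to 16.4) higher. Every Havcr1-positive cell but 1 held a Spp1 UMI. So did 90.7%, 96.8%, 85.7% and 71.3% of comparison cells in the same order of libraries. Of barcodes with at least 2 Ptprc UMIs, 62.1%, 61.4%, 42.0% and 25.6% did. The level of Spp1 thus differed more than its presence, and the part of free RNA was not tested.

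The keratin genes were less even. Krt8, a keratin of simple epithelia, was at 656, 310, 646 and 473 CPM against 118, 135, 277 and 165 CPM in comparison cells. Krt20, a keratin of mature epithelial surfaces that appears in injured tubules, was at 128, 49.9, 28.3 and 16.04 CPM against 0.293, 0.452, 0.387 and 0.243 CPM. Krt20 was found in 26.5%, 13.2%, 13.0% and 12.5% of Havcr1-positive cells. The Krt20 ratio was 437 (147 to 2140) at day 5, where comparison cells held 3 UMIs, 110 (64.2 to 203) with Lac.z and 73.0 (43.4 to 129) at day 14. All 3 markers were thus higher as groups, but Krt20 was a feature of a minority of the cells.

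Markers of other cells had these levels in raw UMIs per cell. Depth was higher in the median Havcr1-positive than in the median comparison cell of each library, as given above. Its part in these values was not tested. The median Havcr1-positive cell held 0 UMIs of the lists for T and NK cells, neutrophils, endothelium, principal cells, intercalated cells, podocytes and urothelium in every library. The macrophage list, which shares Cd74 with the cytokine list used here, had a median of 10, 9, 20 and 20 UMIs per Havcr1-positive cell against 5, 3, 3 and 1 per comparison cell. It reached 1% of a cell's UMIs in 0, 0, 2 and 0 cells. Of 11 macrophage genes measured in the first 3 libraries, 2 were higher in each by the 2-fold rule given below, Cd14 and Cd74. The thick ascending limb list had a median of 9.5, 13, 14 and 7.5 UMIs against 9, 11, 9 and 8. The distal convoluted tubule list had a median of 1 UMI per Havcr1-positive cell in every library against 0 per comparison cell. It reached 1% of the UMIs of no Havcr1-positive cell. A single Lac.z cell held 704 UMIs of the thick ascending limb list, mostly Umod (uromodulin). A doublet caller marked 0, 5, 12 and 1 of the Havcr1-positive cells, and they were kept.

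Against comparison cells, genes are called higher or lower where the ratio of CPM passed 2-fold, with 1 UMI added to each sum and at least 50 UMIs over both. This is a rule of size, not a test. Of the genes measured, 15.6% were higher and 8.59% lower at day 5, 9.16% and 5.73% in the Lac.z library, then 10.5% and 4.56% at day 14, and 34.7% and 5.31% at day 28, where 16 cells made up the sum. Genes higher in each of the first 3 libraries numbered 481, which was 5.07% of 9484 measured in all 3, and genes lower in each numbered 177, or 1.87%. In all 4 libraries there were 453 higher (4.78%) and 125 lower (1.32%) of 9475.

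The split between higher and lower depended on the scaling, because the median of all genes was above 0. That median was 0.28 log2 at day 5, 0.15 in the Lac.z library, then 0.22 at day 14 and 0.61 at day 28. After scaling to the median gene, the counts of higher and lower genes went from 1490 and 819 to 904 and 1241 at day 5, from 1027 and 642 to 810 and 864 with Lac.z, and from 1216 and 528 to 870 and 786 at day 14. At day 28 they went from 4181 and 641 to 2256 and 1672, or to 2351 and 2797 when UMIs were added in proportion to the sums. Over the first 3 libraries together the scaled counts were 371 higher and 274 lower.

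Injury genes and keratins, other than Havcr1, were higher nearly throughout. Of the list, 29 of 30 measured genes were higher at day 5, 28 of 29 in the Lac.z library, 29 of 30 at day 14 and 23 of 25 at day 28, and none was lower in any library. Of the 29 measured in the first 3 libraries, 28 were higher in each, and the exception was Prom1, a membrane protein of epithelial progenitors, whose log2 ratios were 0.60, 0.06 and -0.08. The list's median log2 ratio was 4.62, 4.71, 3.47 and 3.50, and 2.79, 4.50, 2.04 and 3.65 among Havcr1-positive cells with Lrp2, the marker for which comparison cells were chosen. Lists and cells were chosen with results of these data known, so these counts are descriptive.

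Of the 453 genes higher in all 4 libraries, 36 had at most 50% of their UMIs in 3 cells in every library, and this limit removed 416 at day 28, where only 16 cells were summed. Among the 36, Tnfrsf12a had the highest smallest ratio, while 56 of the 453 had a higher one, with Hspb1, Vcam1, Cp, Anxa3 and Atf3 among them. Tnfrsf12a encodes Fn14, the receptor for the cytokine TWEAK. It was at 313 CPM at day 5, 285 in the Lac.z library, then 317 at day 14 and 345 at day 28, against 41.4, 37.9, 31.8 and 30.9 CPM in comparison cells. Its level among Havcr1-positive cells barely differed between libraries. The ratios were 7.56 (6.56 to 8.71), 7.50 (6.82 to 8.24), 9.97 (9.17 to 10.8) and 11.2 (8.91 to 13.9). A Tnfrsf12a UMI was found in 83.8%, 77.4%, 75.7% and 93.8% of Havcr1-positive cells, so unlike Krt20 it was present in most of them.

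S100a10, the partner of annexin A2 at the membrane, was found in 94.1%, 97.5%, 95.7% and 100% of Havcr1-positive cells. It was at 1073, 912, 1070 and 1292 CPM against 199, 193, 227 and 143 CPM. Its relative S100a6, another calcium-binding protein, was at 6114, 1506, 505 and 746 CPM, but it was found in only 50.0%, 19.5%, 24.9% and 25.0% of the cells. S100a10 was therefore even across cells and libraries, while S100a6 was concentrated in a part of the cells and was highest at day 5.

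Anxa5, an annexin that binds phosphatidylserine, was at 448, 266, 262 and 321 CPM against 62.5, 38.3, 48.9 and 37.7. Cstb, an inhibitor of lysosomal cathepsins, was at 779, 603, 891 and 999 CPM against 151, 136, 166 and 139. Hspb1, a small heat shock protein that binds actin, was not among the 12 named by rank. It was at 868, 549, 626 and 674 CPM against 13.8, 8.20, 13.5 and 14.3, and it was the only 1 of 23 measured chaperone and unfolded protein response genes higher in each of the first 3 libraries. Ahnak, Myh9, Tmem123, Rras, Arpc1b, Serpinb6a and Rassf6 were also higher in each library, with log2 ratios from 1.70 for Rassf6 at day 14 to 3.11 for Ahnak at day 5.

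Of 10 fibrinogen and acute phase genes measured in the first 3 libraries, 5 were higher in each (Cp, Lcn2, C3, Stat3 and Socs3) and none lower in each. Fgg and Fga, the gamma and alpha chains of fibrinogen, had log2 ratios of -0.72 and 0.27 at day 5, and Serpina1a one of -0.77 with Lac.z. Cp (ceruloplasmin), a copper-carrying ferroxidase, was at 537, 276, 329 and 317 CPM against 12.9, 18.2, 20.7 and 6.11, which was 41.7-fold (34.5 to 50.6) at day 5. C3, the central complement protein, was at 341, 515, 667 and 233 CPM against 48.5, 109, 29.9 and 11.2. Lcn2, the siderophore-binding protein NGAL, was at 396, 126 and 12.6 CPM at day 5, the Lac.z library and day 14, and no UMI was found in the 16 cells of day 28, which allows up to 12.03 CPM. Among cells with Lrp2 the log2 ratio of Lcn2 at day 14 was -0.33. At day 5, 2 of the 15 Havcr1-positive cells with Lcn2 had at least 2 Lrp2 UMIs. The log2 ratio of Lcn2 between Lac.z and day 5 was -1.66 over all Havcr1-positive cells and 4.01 among those with Lrp2. Cp and C3 were present in all 4 libraries, whereas Lcn2 was highest at day 5 over all Havcr1-positive cells and not among those with Lrp2.

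**Figure D2:**
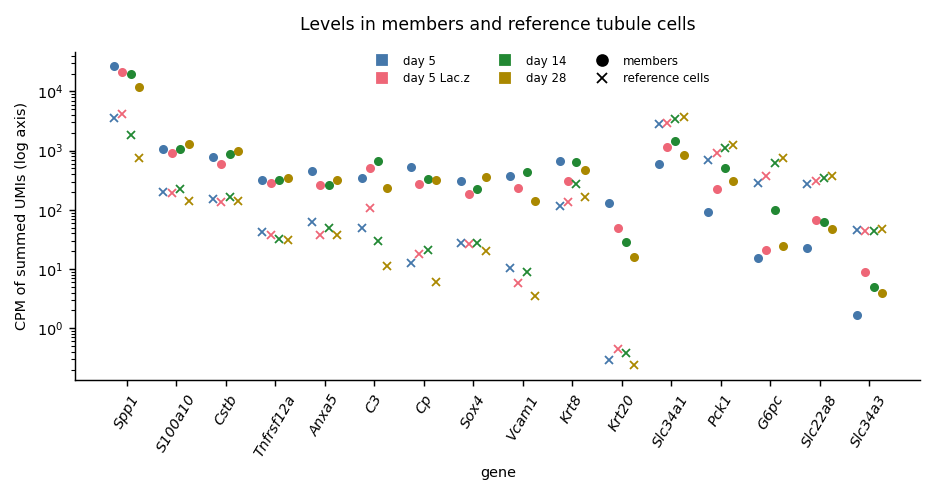
Level in CPM on a log axis of selected genes in Havcr1-positive cells (circles) and in comparison cells (crosses) of each of the 4 libraries, where each point is the sum over the cells of 1 group. Tnfrsf12a and S100a10 sit at nearly the same level in the Havcr1-positive cells of every library, while Krt20 is highest at day 5, and Slc34a1 and G6pc are below the comparison cells throughout.

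Signals to leukocytes were another group. Of 19 cytokine and chemokine genes measured in the first 3 libraries, 11 were higher in each and none lower in each, with list medians of 2.42, 1.57 and 2.63 log2. Cxcl1, which attracts neutrophils, was at 364, 507, 488 and 265 CPM against 24.7, 20.8, 25.9 and 21.6. Csf1, a growth factor for macrophages, was at 51.4, 46.1, 65.3 and 16.04 CPM against 2.34, 3.14, 1.49 and 0.787. Il34, the other ligand of the same receptor, was at 62.3, 39.3, 53.1 and 96.3 CPM against 11.7, 7.03, 4.54 and 3.95. Ccl2, a monocyte chemokine, came from few cells, since the 3 highest Havcr1-positive cells held 91.6%, 98.6%, 83.8% and 92.0% of its UMIs.

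Cd74, the invariant chain of MHC class II, was at 524, 542, 892 and 734 CPM against 211, 182, 187 and 161. Macrophage RNA also holds Cd74, and the macrophage list was higher in raw UMIs per Havcr1-positive cell, as given above. The part of macrophage RNA in the Cd74 values was not tested. Vcam1, an adhesion molecule for leukocytes, was at 365, 231, 434 and 140 CPM against 10.6, 5.70, 9.08 and 3.49. Its ratio was 34.6 (28.0 to 43.2) at day 5, 40.6 (34.3 to 48.1) with Lac.z and 47.8 (42.8 to 53.5) at day 14. After thinning to 2000 UMIs, 28.4%, 13.9%, 25.7% and 43.8% of Havcr1-positive cells held a Vcam1 UMI, so it too was absent from most cells at this depth. Of barcodes with at least 2 Ptprc UMIs, 9.11%, 11.7%, 9.48% and 9.57% did, and macrophages among them also make Vcam1.

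Within the NF-kappaB pathway 11 of 15 genes measured in the first 3 libraries were higher in each, and the list medians were 2.05, 2.12 and 1.97 log2. Relb, a subunit of the noncanonical branch, was at 41.3, 26.6, 30.7 and 20.1 CPM against 3.13, 2.56, 2.99 and 2.45. Nfkb2, the precursor of its partner p52, had log2 ratios of 3.42, 2.95, 2.84 and 2.96. Birc3, a ubiquitin ligase that acts below TNF family receptors, had log2 ratios of 3.37, 2.90, 3.40 and 3.33. Relb at day 28 rested on 5 UMIs.

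Of 24 nephron development and epithelial transcription factor genes measured in the first 3 libraries, 9 were higher in each. Sox4 was at 306, 183, 221 and 353 CPM against 27.4, 26.3, 27.1 and 20.5. Sox9, a factor of tubule repair, was at 73.2, 71.0, 69.1 and 144 CPM against 6.84, 3.47, 2.45 and 2.25. Pax8, a kidney epithelial factor, was at 242, 314, 289 and 297 CPM against 72.7, 99.8, 111 and 112. The others were Cdh6, a cadherin of the developing tubule, and the factors Klf5, Klf6, Runx1, Elf3 and Zeb1.

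The 1 gene of that list lower in each was Maf, at 237, 353, 350 and 132 CPM against 853, 918, 789 and 637. Hnf4a, the main factor of the mature proximal tubule, passed the 2-fold rule at day 5 and day 28, with log2 ratios of -1.52 and -1.13, and not in the Lac.z library or day 14, with -0.84 and -0.54. In each library Hnf4a lay nearer to the comparison cells than Slc34a1 or G6pc did.

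Growth factor and stress genes followed. Hbegf, a ligand of the EGF receptor, was at 281, 167, 289 and 513 CPM against 56.2, 57.3, 92.3 and 140. Pdgfb, a mitogen for mesenchymal cells, was at 84.2, 90.5, 73.3 and 92.3 CPM against 21.9, 18.1, 11.1 and 12.1. Edn1 (endothelin 1) had log2 ratios of 3.33, 4.67, 4.67 and 6.04. Of 25 growth factor and receptor genes measured in the first 3 libraries 9 were higher in each, and Igfbp5, which binds insulin-like growth factors, was lower in each.

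Among 20 growth arrest and senescence genes, 6 were higher in each of the first 3 libraries. Gdf15, a stress cytokine, was at 493, 832, 1168 and 413 CPM against 87.2, 151, 234 and 290. Cdkn1a (p21), an inhibitor of the cell cycle, had log2 ratios of 3.60, 3.06, 2.63 and 0.44. Both passed the 2-fold rule in the first 3 libraries and not at day 28. Atf3, an immediate early stress factor, was at 464, 403, 1038 and 1252 CPM against 27.2, 44.5, 94.8 and 68.2, and 11 of 20 immediate early genes were higher in each of the first 3 libraries.

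Transport and metabolism of the mature tubule were lower, and less uniformly so than the injury genes were higher. The difference varied with the segment of the proximal tubule that a gene marks. Of 6 S1 (first segment) markers, 5 were lower in each of the first 3 libraries. Their median log2 ratios were -2.82, -1.55, -1.72 and -2.28 over the 4 libraries. Of 7 S3 (last segment) markers 0 were lower or higher in each, with medians of 0.16, -0.19, 0.39 and 0.72. The segment of origin of the cells was not tested. The comparison cells were chosen for Lrp2, and 98 of the 428 Havcr1-positive cells had fewer than 2 Lrp2 UMIs, so values for Havcr1-positive cells with at least 2 are set beside those for all. Of 39 apical transport genes 9 were lower in each of the first 3 libraries and none higher in each. The list median was -1.24 log2 at day 5, -0.56 with Lac.z, then -0.48 at day 14 and -0.83 at day 28. Among Havcr1-positive cells with Lrp2 it was -0.51, -0.52, -0.38 and -0.86.

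Slc34a1 was at 600, 1164, 1445 and 838 CPM against 2789, 2965, 3440 and 3751 in comparison cells. Its log2 ratio was -2.21, -1.35, -1.25 and -2.15, and -1.42, -1.18, -1.11 and -2.19 among those with Lrp2. Slc22a8, the organic anion transporter OAT3 of the basolateral membrane, was at 22.7, 66.8, 62.9 and 48.1 CPM against 278, 312, 339 and 374. Its log2 ratio was -3.56, -2.21, -2.42 and -2.84, and -2.82, -2.03, -2.25 and -2.72 among cells with Lrp2. Slc34a3, a further phosphate transporter, had log2 ratios of -4.20, -2.22, -3.05 and -2.58, and -3.94, -2.07, -2.94 and -3.34 among cells with Lrp2. Dpep1, a dipeptidase of the brush border, had log2 ratios of -3.50, -2.58, -2.37 and -2.84, and -2.66, -2.37, -2.21 and -2.60 with Lrp2. All of these were lower in each library.

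Gluconeogenesis genes were lower in 5 of 10 cases in each of the first 3 libraries, namely Pck1, G6pc, Fbp1, Pcx and Slc37a4. G6pc, the phosphatase that releases free glucose, was at 15.2, 20.7, 99.2 and 24.1 CPM against 280, 376, 624 and 759. It was 18.5-fold (11.7 to 31.2), 18.1-fold (13.7 to 24.5), 6.29-fold (5.60 to 7.09) and 31.5-fold (14.5 to 86.0) lower. Among Havcr1-positive cells with Lrp2 its log2 ratio was -3.36, -3.99, -2.45 and -4.52, so the difference was also measured in cells that held megalin mRNA. Pck1, the enzyme at the entry of the pathway, was at 93.5, 223, 514 and 309 CPM against 702, 916, 1093 and 1233. Its log2 ratio was -2.90, -2.04, -1.09 and -1.98, and -2.13, -1.87, -0.90 and -1.78 among cells with Lrp2, where day 14 no longer passed the rule.

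Cyp2d12, a cytochrome P450, was at 0, 2.54, 1.75 and 0 CPM against 48.4, 57.8, 46.9 and 74.1, and its log2 ratio among cells with Lrp2 was between -3.97 and -5.00. Car14, a membrane carbonic anhydrase, had log2 ratios of -3.52, -2.81, -2.48 and -3.77, and -2.68, -2.63, -2.30 and -3.53 among cells with Lrp2. Clec2h, Chrna4, Slc16a14, Cyp2d26, Ces1e and Acss1 completed the 12 lower genes named by rank and were lower in each library.

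Fatty acid oxidation was below comparison cells by less than the 2-fold rule for most genes. Of 38 genes 2 were lower in each of the first 3 libraries, Acaa2, a mitochondrial thiolase, and Cyp4b1, a cytochrome P450, and none was higher in each. The list median was -0.93, -0.53, -0.48 and -0.46 log2, and -0.56, -0.45, -0.37 and -0.54 among cells with Lrp2. No gene of 23 for oxidative phosphorylation and none of 31 for oxidative stress, iron and ferroptosis passed the rule in 1 direction in each of the first 3 libraries.

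In glycolysis 3 of 13 genes were higher in each, and these were Pfkp, Pkm and Slc2a1. Among cells with Lrp2, Pfkp at day 5 and Pkm at day 14 no longer passed the rule, with log2 ratios of 0.94 and 0.41. Slc2a1 still passed it in each of the first 3 libraries, with 2.30, 1.40 and 1.12. Slc2a1, the glucose transporter GLUT1, was at 64.8, 20.3, 26.9 and 64.2 CPM against 6.93, 6.85, 9.41 and 9.12. Ldha, which makes lactate, did not pass the rule, with log2 ratios of 0.30, 0.18, 0.18 and 0.39.

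KIM-1 acts in the uptake of dying cells, and of 27 genes for phosphatidylserine uptake and lipid handling 3 were higher and 3 lower in each of the first 3 libraries. Mfge8, a soluble bridge between phosphatidylserine and integrins, was at 59.8, 47.4, 32.8 and 44.1 CPM against 3.03, 3.35, 4.33 and 2.38. Mertk, a receptor tyrosine kinase for the same lipid through other bridges, was at 1.68, 5.92, 8.38 and 0 CPM against 16.3, 23.1, 25.1 and 26.4. Itgav, an integrin chain that Mfge8 binds, and Lgals3 (galectin 3) were the other higher genes. Lpl (lipoprotein lipase) and Fabp4, a fatty acid binding protein, were the other lower ones. Unlike Havcr1-positive cells, comparison cells were not filtered on Pecam1, C1q or cell division genes. The part of this unequal filter in the Fabp4 value was not tested.

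**Figure D3:**
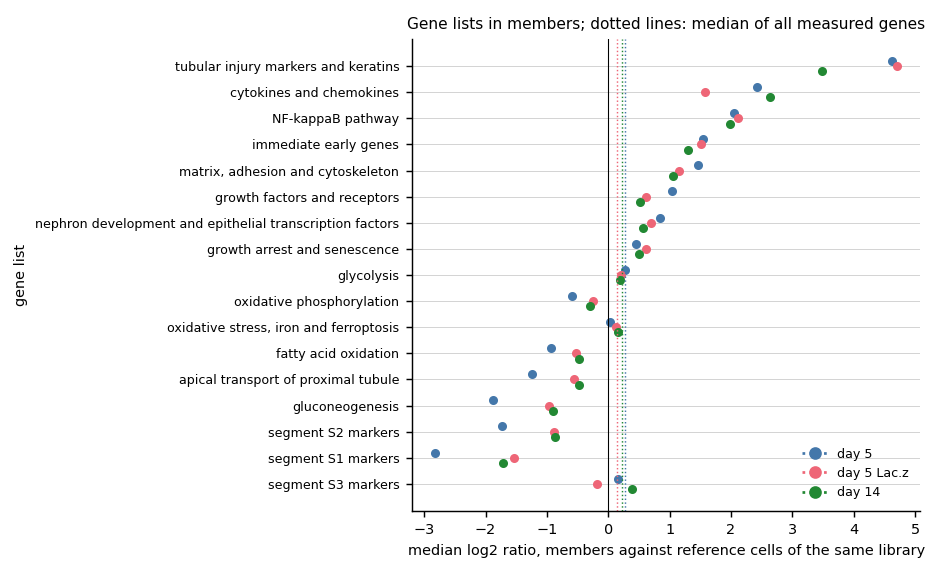
Median log2 ratio of Havcr1-positive to comparison cells for each of 17 gene lists at day 5, day 5 Lac.z and day 14, with dotted lines at the median of all measured genes. Of the lists drawn, injury genes lie highest, with medians of 3.47 to 4.71, and gluconeogenesis and apical transport lie below 0 in each of these libraries.

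The Havcr1-positive cells were not alike. At least 2 Lrp2 UMIs were found in 54.4% at day 5 (41.9 to 66.5), 83.6% in the Lac.z library (77.0 to 89.0), then 80.5% at day 14 (74.1 to 86.0) and 68.8% at day 28 (41.3 to 89.0). Cells with Lrp2 numbered 37, 133, 149 and 11, and cells without, which had fewer than 2 Lrp2 UMIs, 31, 26, 36 and 5. At least 1 Lrp2 UMI was found in 44, 145, 165 and 12 cells, so some of those called without held 1. The day 5 library thus held the lowest share of cells with megalin mRNA. Lrp2 was found after thinning in 43.3%, 62.0%, 58.5% and 43.8% of the cells.

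Between cells with and without Lrp2, 12.1% of measured genes were higher and 11.1% lower in those with Lrp2 at day 5, 9.63% and 6.54% in the Lac.z library, and 9.86% and 6.64% at day 14. Leaving out mitochondrial UMIs moved the day 5 counts from 417 higher and 381 lower to 486 and 265. In each of the 3 libraries 112 genes were higher (3.32%) and 82 lower (2.43%). Day 28 was left out for its 5 cells without Lrp2. Median depths of cells without Lrp2 were 15227, 7905 and 7752 UMIs, and those of cells with Lrp2 were 14817, 12802 and 15875. The part of depth in this split was not tested.

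Cells without Lrp2 held most of the keratin 18 and S100a6 mRNA. Krt18, the partner of keratin 8, was at 27.2 CPM with Lrp2 and 1145 without at day 5, 52.6 and 515 in the Lac.z library, and 30.6 and 464 at day 14. S100a6 was at 1067 and 12470, 523 and 7573, and 160 and 2763 CPM. Cldn7, a tight junction claudin of more distal segments, was at 66.5 and 319, 28.0 and 127, and 29.0 and 187 CPM. Vim (vimentin) was lower with Lrp2 too, but 3 cells of the group without Lrp2 held most of its UMIs.

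Transport genes took the opposite side. Slc34a1 was at 1042 CPM with Lrp2 and 43.7 without at day 5, 1304 and 300 in the Lac.z library, and 1592 and 485 at day 14. Hnf4a was at 172 and 11.4, 182 and 36.4, and 197 and 52.7 CPM. Of the injury list 21 of 28 genes were lower with Lrp2 at day 5, 17 of 25 with Lac.z and 16 of 22 at day 14, and none was higher. Of apical transport genes 23 of 26, 22 of 34 and 26 of 37 were higher.

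Spp1, Tnfrsf12a, Cp and Pax8 did not pass the rule between these cells in any of the 3 libraries. Spp1 was at 23880 CPM with Lrp2 and 29460 without at day 5, 20670 and 22000 in the Lac.z library, and 18520 and 27270 at day 14. Tnfrsf12a was at 272 and 365, 264 and 412, and 289 and 503 CPM. The urothelial list, which shares Sprr1a with the injury list, summed to 12.1 CPM with Lrp2 and 87.5 without at day 5, 30.5 and 78.8 with Lac.z, and 15.7 and 31.6 at day 14. In the Lac.z library 1 cell held 59 of the 62 UMIs of the list with Lrp2, and 3 cells held 96.2% of those without. Its median per cell was 0 in both. Whether the cells without Lrp2 are proximal tubule cells with little or no megalin mRNA, or cells of another epithelium, was not tested.

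Markers found in a minority of the cells tended to be found together. Of the 65 Havcr1-positive cells with a Krt20 UMI, 49.2% also had Krt18, against 17.6% of the 363 without. S100a6 was found in 56.9% against 21.5% and Vcam1 in 67.7% against 38.8%, while at least 2 Lrp2 UMIs were found in 56.9% against 80.7%. The cells with Krt20 were deeper, at a median of 23043 against 12041 UMIs, and the part of depth in these shares was not tested. Of the 107 cells with Sox9, 96.3% had Tnfrsf12a, against 72.3% of the 321 without, at 17943 and 11476 UMIs.

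**Figure D4:**
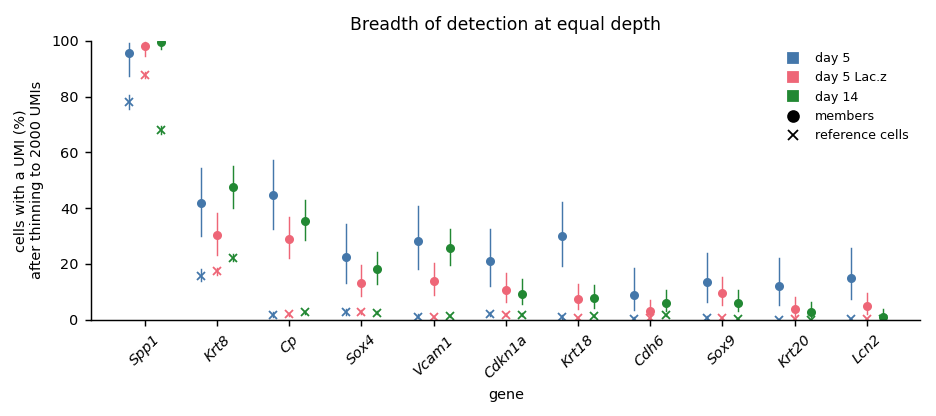
Percentage of Havcr1-positive cells (circles) and comparison cells (crosses) with at least 1 UMI of each gene after thinning every cell to 2000 UMIs, at day 5, day 5 Lac.z and day 14, with exact 95% binomial intervals. Of Havcr1-positive cells, Spp1 is found in 95.5% to 99.5%, Krt8 in 30.4% to 47.5%, and Krt20 in at most 11.9%. Of comparison cells, Spp1 is found in 68.1% to 87.7%.

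Havcr1-positive cells of the Lac.z library were compared with those of day 5. Of 6977 genes measured, 226 were higher (3.24%) and 218 lower (3.12%) with Lac.z. Among cells with Lrp2 the counts were 122 higher (2.05%) and 75 lower (1.26%) of 5947. The same step in comparison cells gave 1.65% of genes higher and 1.56% lower. This comparison and those of days 14 and 28 share the day 5 library, so a value peculiar to it moves all of them.

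Genes that respond to interferon were higher in the Lac.z library. Isg15, a ubiquitin-like antiviral protein, was at 3.37 CPM at day 5 and 54.1 with Lac.z, a ratio of 16.1 (6.13 to 59.9). Irf7, a factor that amplifies the interferon response, was at 10.9 and 101 CPM, a ratio of 9.23 (5.30 to 17.6). Ifit1, which binds foreign RNA, was at 3.37 and 63.0 CPM, a ratio of 18.7 (7.16 to 69.6). Of the list 13 of 24 measured genes were higher and 1 lower, with a median of 1.20 log2.

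These genes were higher in comparison cells too, where 23 of 34 of the list were higher and none lower, with a median of 1.37 log2. There Isg15 had a ratio of 6.49 (4.60 to 9.45) and Ifit1 one of 8.42 (6.67 to 10.8). Among Havcr1-positive cells with Lrp2 12 of 21 were higher and the median was 1.17 log2. The difference was thus measured in both kinds of tubule cell, and 1 library a group cannot separate it from the library.

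A gene of fatty acid metabolism was also higher. Cyp4a14, a fatty acid hydroxylase that responds to PPAR-alpha, was at 21.9 CPM at day 5 and 166 with Lac.z, a ratio of 7.57 (5.09 to 11.7), against 4.85 (4.44 to 5.31) in comparison cells. Cyp4a10 and Cyp4a14 have near copies, so reads may be shared between them.

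Fibrinogen chains were higher with Lac.z in Havcr1-positive cells. Fgg, the gamma chain, was at 89.2 CPM at day 5 and 443 with Lac.z in Havcr1-positive cells, a ratio of 4.96 (4.06 to 6.12). In comparison cells Fgg was at 148 and 169 CPM, a ratio of 1.14 (1.08 to 1.21). Fgb, the beta chain, was at 22.7 and 129 CPM, a ratio of 5.66 (3.81 to 8.72), in Havcr1-positive cells, and at 14.75 and 37.7 CPM, a ratio of 2.56 (2.16 to 3.05), in comparison cells. The intervals of both ratios over all Havcr1-positive cells lay above those in comparison cells, and the difference was not tested over replicates. Against the comparison cells of the same library, Fgb had log2 ratios of 0.667 at day 5 and 1.772 with Lac.z. Among Havcr1-positive cells with Lrp2 they were 1.511 and 1.886. Fgg had -0.721 and 1.388 over all Havcr1-positive cells, and -0.064 and 1.495 among those with Lrp2. The part of cells without Lrp2 in the difference was not tested.

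The injury list was lower with Lac.z over all Havcr1-positive cells and nearer to even among those with Lrp2. Of 30 measured genes 13 were lower and 1 higher, with a median of -0.95 log2. Among cells with Lrp2 5 of 25 were lower and 6 higher, with a median of -0.34. Krt18 had a log2 ratio of -2.15 over all Havcr1-positive cells and 0.89 among those with Lrp2. Krt20 kept its direction, at -1.36 and -2.03.

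Single genes with lower values with Lac.z included Timp1, an inhibitor of matrix proteases, at 69.0 CPM at day 5 and 11.8 with Lac.z. S100a6 was 4.06-fold and Cldn7 4.26-fold lower. Pkm, a glycolytic kinase, was at 229 and 64.3 CPM, and its log2 ratio was -1.83 over all Havcr1-positive cells and 0.77 among those with Lrp2. Tnfrsf12a did not pass the rule, with a ratio of 0.909 (0.799 to 1.03).

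**Figure D5:**
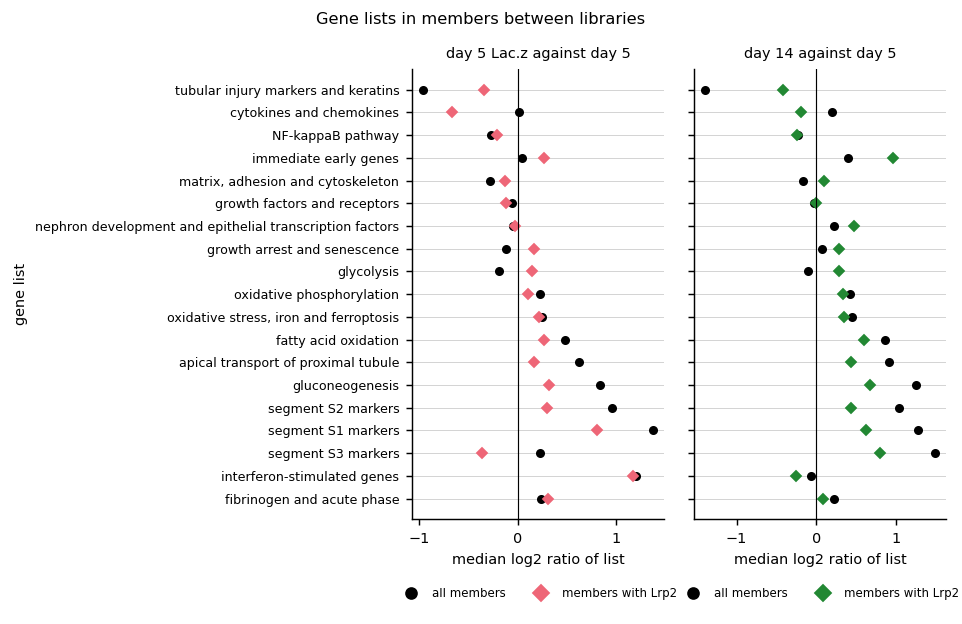
Median log2 ratio of gene lists between the Havcr1-positive cells of day 5 Lac.z (left) or day 14 (right) and those of day 5, over all Havcr1-positive cells and over those with at least 2 Lrp2 UMIs. The injury list moves from -0.95 to -0.34 with Lac.z and from -1.39 to -0.42 at day 14, whereas the interferon list stays at 1.20 and 1.17 with Lac.z.

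At day 14 the Havcr1-positive cells held more of the mature tubule's mRNA than at day 5. Of 7512 genes measured 502 were higher (6.68%) and 230 lower (3.06%), and among cells with Lrp2 322 of 6602 were higher (4.88%) and 97 lower (1.47%). In comparison cells 4.21% were higher and 2.8% lower. Gluconeogenesis had a median of 1.25 log2 with 6 of 10 genes higher, and 0.67 with 3 of 10 among cells with Lrp2. Apical transport had a median of 0.91 with 18 of 38 higher, and 0.44 with 3 of 38. Against the comparison cells of the same library, the differences between days were smaller among cells with Lrp2. There gluconeogenesis had a median of -1.11 log2 at day 5 and -0.74 at day 14, and apical transport -0.51 and -0.38.

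G6pc was at 15.2 CPM at day 5 and 99.2 at day 14, a ratio of 6.54 (4.07 to 11.2), and Pck1 at 93.5 and 514, a ratio of 5.50 (4.53 to 6.73). Fatty acid oxidation had 15 of 37 genes higher with a median of 0.86 log2, and 11 of 37 with 0.59 among cells with Lrp2. Against comparison cells, that list had a median among cells with Lrp2 of -0.56 at day 5 and -0.37 at day 14. G6pc and Pck1 were still below the comparison cells of day 14, as given above. Both enzymes were also higher at day 14 than at day 5 in comparison cells, by the levels given above.

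Genes named by rank at day 14 included several that were also higher in comparison cells. Prlr, the prolactin receptor, was at 4.21 and 105 CPM, a ratio of 24.9 (10.6 to 77.2), against 3.42 (2.87 to 4.12) in comparison cells. Serpina1a, an alpha-1-antitrypsin gene with near-identical copies, was at 5.89 and 174 CPM, a ratio of 29.6 (14.3 to 73.9), against 37.3 (25.2 to 57.7) in comparison cells. Inmt, an amine methyltransferase, was at 13.5 and 184 CPM, a ratio of 13.6 (8.32 to 24.0), against 2.54 (2.42 to 2.67). Scd1, a fatty acid desaturase, was at 3.37 and 73.3 CPM, and in comparison cells its ratio was 11.4. Rarres2 (chemerin) was at 2.53 and 46.5 CPM, a ratio of 18.4 (6.16 to 90.3), against 8.76 (7.08 to 10.96).

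The injury list was lower at day 14 in 16 of 30 genes with a median of -1.39 log2, and in 6 of 21 with -0.42 among cells with Lrp2. S100a6 was 12.1-fold lower and Krt20 4.52-fold lower. Krt18 had a log2 ratio of -2.57 over all Havcr1-positive cells and 0.11 among those with Lrp2. Gdf15 and Atf3 went the other way, with ratios of 2.37 (2.17 to 2.59) and 2.24 (2.04 to 2.46). Both were also higher at day 14 than at day 5 in comparison cells, by the levels given above. The ratio of Havcr1-positive to comparison cells was lower at day 14 than at day 5 for both genes. Their rise was thus measured in both kinds of tubule cell. Immediate early genes were higher in 8 of 20 and lower in 2, with a median of 0.40, and higher in 10 of 20 with 0.96 among cells with Lrp2.

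At day 28 only 16 cells were found, and the largest held 30.6% of their UMIs. Of 4072 genes measured 220 were higher (5.4%) and 141 lower (3.46%) than at day 5, and after scaling to the median gene 136 were higher and 200 lower. In cells with Lrp2 the counts were 161 of 2568 higher (6.27%) and 86 lower (3.35%). In comparison cells 4.21% were higher and 2.87% lower. First by rank were Ephx2, an epoxide hydrolase, at 69.9 and 217 CPM, Gstm1, a glutathione transferase, at 174 and 530, Cyr61, a matrix protein, at 263 and 706, and Fbp1 at 134 and 325.

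Lower at day 28 over all Havcr1-positive cells were S100a6, at 6114 and 746 CPM, and Krt20, at 128 and 16.04 CPM. So were Mt1 (metallothionein 1), at 216 and 44.1 CPM, and the long noncoding RNA Neat1, at 2493 and 646 CPM. The injury list's median log2 ratio to day 5 was -1.404 over all Havcr1-positive cells and -0.105 among those with Lrp2. Against comparison cells, the log2 ratio of S100a6 was 6.997 at day 5 and 6.478 at day 28, and 4.48 and 6.719 with Lrp2. That of Mt1 was 1.206 and -0.809, and -0.123 and -0.568 with Lrp2. The part of cells without Lrp2 in these falls was not tested. Spp1 was 2.24-fold lower than at day 5. It fell by more in comparison cells, since its log2 ratio to them was 2.91 at day 5 and 3.98 at day 28. Tnfrsf12a was not called, with a ratio of 1.10 (0.861 to 1.40). The other genes of that comparison that the rule named were Dtnbp1, Acat1, Grhpr, Acaa1b, Gpx1 and Mettl7b on the higher side and Lyz2, Cpe, Cldn3, Cd9, Akr1b8 and Acsl4 on the lower.

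Tubule cells with at least 2 Vcam1 UMIs and no Havcr1 were the other cells compared, and numbered 8, 26, 66 and 38 in the 4 libraries. They also held at least 1 Lrp2 UMI and met the same limits on Ptprc, Pecam1, C1q and cell division genes. Havcr1-positive cells were not chosen on Lrp2, and the part of this unequal filter in the differences below was not tested. In Havcr1-positive cells 5.05% of genes were higher and 3.51% lower than in these cells in the Lac.z library, and 1.83% and 1.44% at day 14. In both libraries 30 genes were higher (0.503%) and 19 lower (0.319%). The other libraries were not compared.

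Of the cytokine and chemokine list, 7 of 19 genes were higher and 3 lower in Havcr1-positive than in Vcam1 cells with Lac.z, and 6 of 18 higher and none lower at day 14. Of the injury list, 14 of 25 were higher and none lower with Lac.z, and 5 of 23 higher and 3 lower at day 14. Cxcl1 was at 507 CPM against 39.4 with Lac.z, a ratio of 12.8 (7.75 to 23.0), and at 488 against 48.6 at day 14, a ratio of 10.0 (7.52 to 13.7). Krt20 was at 28.3 CPM at day 14, where the Vcam1 cells held no UMI. The genes named here were chosen after their values were seen. Hspb1 was at 549 against 150 and at 626 against 244 CPM, and Fgg at 443 against 153 and at 170 against 40.5. Cd44, the hyaluronan receptor, and Tnfaip3, an NF-kappaB inhibitor, were also higher in both.

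Of the matrix, adhesion and cytoskeleton list, 7 of 31 genes were lower and 2 higher with Lac.z, and 5 of 33 lower and none higher at day 14, with medians of -0.06 and -0.07 log2. Sparc, a matrix glycoprotein, was at 44.0 against 550 CPM with Lac.z and at 80.3 against 295 at day 14. Ncam1, a cell adhesion molecule of the developing kidney, was at 10.99 against 68.4 and at 9.78 against 72.9. The factor Nr2f2 and the antiviral gene Ifitm3 were lower in both as well.

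Cp, C3 and Krt8 did not pass the rule in either library. Cp was at 276 against 323 CPM with Lac.z and at 329 against 297 at day 14. The ratio of C3 was 1.05 (0.902 to 1.24) with Lac.z and 1.38 (1.25 to 1.53) at day 14.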

How the data were processed

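The authors deposited raw UMI counts, whole numbers for each gene in each barcode with no normalisation, per the file headers. Per the submitters' processing notes, mm10 was the build. Software version 3.0.2 stands in the headers of day 5 and of Lac.z and version 3.1.0 in those of day 14 and day 28. This version and the later times cannot be told apart. No source used here gives the aligner or the gene annotation. Each matrix listed 31053 genes, named as in the files.

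UMIs were summed over the cells of each kind and library and divided by all their UMIs to give CPM. Exact conditional intervals of ratios and Clopper-Pearson intervals of shares were computed. Cells are not replicates, so sums were compared without a test. The 9 genes of the rule were left out of all counts of genes. Scrublet, run through scanpy, marked 0.8% of barcodes per 1000 as doublets, and marked cells were removed only in an alternative. The calculations were tested on simulated data.

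The cells and the 36 gene lists were chosen with earlier results of these data known. Against comparison cells, genes called the same way in all 4 libraries were ranked by their smallest difference, and the first 12 in each direction were named. Between libraries the 10 largest in each direction with at least 100 UMIs were named. In both, the 3 highest cells held at most 50% of the higher group's UMIs. Some genes are not reported here. Genes named within lists, for prevalence or for contrast between cells were chosen after their values were seen. Ifit3, Serpina1a, Cyp4a10, Cyp4a14 and Havcr1 have close relatives between which reads may be split. Python 3.11.15, numpy 2.4.6, scipy 1.17.1, pandas 2.3.3, scanpy 1.11.5 and matplotlib 3.10.9 were used.

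Alternatives for the cells were a mitochondrial limit of 25%, doublets removed, a Havcr1 minimum of 4, cells with Lrp2 only, and cells of at most 40000 UMIs. A further one applied all exclusions of the rule to the comparison cells. Alternatives for scaling were mitochondrial UMIs left out, scaling to the median gene, cells weighted equally and UMIs added in proportion. Alternatives for calls were a gene minimum of 200 UMIs and a 1.5-fold rule.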

Additional observations from a re-analysis of the deposited data

Results flagged for a closer look

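Among the genes examined by name, 3 passed the 2-fold rule in opposite directions between Havcr1-positive and comparison cells of different libraries, and none of these differences between libraries was tested. Mep1b, a meprin protease of the brush border, had log2 ratios of -1.61 at day 5, -0.48 in the Lac.z library, then 0.67 at day 14 and 1.37 at day 28. Its opposite calls did not hold in the alternatives. Among cells with Lrp2 it was at -0.77 at day 5, and with at least 4 Havcr1 UMIs at -1.85 at day 28. Prlr, the prolactin receptor, had -1.35, -1.70, 1.26 and 2.44 in the same order. Umod, the uromodulin of the thick ascending limb, had -0.45, 2.87, -0.73 and -3.38, and 3 cells held 96.8% of its UMIs in Havcr1-positive cells of the Lac.z library.

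Barcodes over the limit of 50% mitochondrial UMIs entered no comparison. In the Lac.z library 4 of 1082 such barcodes held at least 2 Havcr1 UMIs, which is above the 3 counts that a count of 0 allows.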

How the results depend on the processing

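The day 28 share was lowest of the 4 under each alternative run on the shares. With at least 4 Havcr1 UMIs the shares of kept barcodes were 0.593% at day 5, 1.32% in the Lac.z library, then 1.11% at day 14 and 0.0495% at day 28. A mitochondrial limit of 25% gave 2.30% at day 14, and thinning gave 0.717% at day 5. With all exclusions of the rule applied to comparison cells, 437 genes were higher and 122 lower in all 4 libraries. Genes higher than comparison cells in all 4 libraries numbered 200 with a gene minimum of 200 UMIs, 982 with a 1.5-fold rule and 300 in cells with Lrp2 only, and genes lower numbered 351 with the 1.5-fold rule and 233 when scaled to the median gene. Over the first 3 libraries higher genes numbered 216 with the larger minimum and 1112 with the 1.5-fold rule, and lower genes 469 with that rule, 274 when scaled and 112 in cells with Lrp2.

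Against day 5, the larger gene minimum gave 74 higher and 49 lower genes for Lac.z, 240 and 60 for day 14, and 43 and 33 for day 28. The 1.5-fold rule gave 720 and 825, 1195 and 757, and 845 and 392. Cells with Lrp2 gave 122 and 75, 322 and 97, and 86 lower at day 28. A minimum of 4 Havcr1 UMIs gave 129 lower for Lac.z and 140 for day 14. At day 28 scaling to the median gene gave 136 higher and weighting cells equally 356. With the 1.5-fold rule, 279 genes were higher and 243 lower with Lrp2 than without, and 121 and 95 differed from Vcam1 cells.

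Of the values of single genes under these settings, 10309 kept their direction and side of the rule, 244 no longer passed it, 145 newly passed it, 14 moved and 20 changed sign. The sign changes against comparison cells were, at 4 Havcr1 UMIs, Fgg day 28 at -1.28, Krt7 day 14 at -0.031 and Mep1b day 28 at -1.85. In cells with Lrp2 they were Krt19 day 5 at -0.75, Krt7 day 14 at -2.45, Lcn2 day 14 at -0.33 and Mt1 day 5 at -0.12. With UMIs added in proportion Lcn2 day 28 was at -5.59. Against day 5 in cells with Lrp2 they were, for Lac.z, Krt18 at 0.89, Lcn2 at 4.01 and Pkm at 0.77, and, for day 14, Cldn3 at 0.16, Krt18 at 0.11 and Lrrfip1 at 0.16. Without cells over 40000 UMIs Clu for Lac.z was at -0.39 and, for day 28, Ccl2 at 0.89 and Sox9 at -0.34. With 4 Havcr1 UMIs Ctgf for day 14 was at 0.14 and Pck1 for day 28 at -0.068, and with equal weights Ccl2 for day 28 was at 0.33. The causes were not tested.

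No paired analysis was possible because each group had 1 library. For the same reason no library was left out of a group. Small sums limit the day 28 values most, with 249299 UMIs in 16 cells.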
